A study of Mus musculus with 653 samples.

Results

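The genes *Hnf4a*, *Foxa1*, *Foxa2*, *Foxa3*, *Prox1*, *Cebpa*, *Onecut1* and *Onecut2* encode transcription factors of the liver lineage. They were followed in single cells sorted from mouse embryonic livers, as 8 of the 54195 genes in the deposited read counts. They were taken by name as known liver factors and not by a limit on their counts, but with earlier results of these data known. MF1 females were mated with Lgr5-EGFP-IRES-creERT2 males of C57BL/6 background, so a reporter allele places GFP at the *Lgr5* locus. Embryos with and without this allele were collected, and the labels do not say which of them gave the bulk cells. Livers were taken at E10.5 and E13.5. Cells carrying the hepatoblast antigen Liv2 and lacking the endothelial antigen CD31 and the blood antigen CD45 were sorted either as bulk cells or as Lgr5-GFP+ cells. Of all cells, 31.1% were E10.5 bulk, 32.3% E10.5 Lgr5-GFP+, 24.3% E13.5 bulk and 12.3% E13.5 Lgr5-GFP+ cells, which made 414 cells at E10.5 and 239 at E13.5. The labels call every cell a hepatoblast cell. They name no embryo or litter, so each group was 1 sample, and groups and lineages are compared by shares and levels without a test.

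Hepatoblasts are the common progenitors of hepatocytes and cholangiocytes. Hnf4a is a nuclear receptor needed for the hepatocyte program and for the epithelial form of the liver. Foxa1, Foxa2 and Foxa3 are forkhead proteins that bind the regulatory regions of liver genes early and are known as pioneer factors. Prox1 is a homeobox protein needed for hepatoblasts to move out of the liver bud, and it also specifies lymphatic endothelium. Cebpa, a leucine zipper protein, drives hepatocyte maturation and, in blood, the myeloid lineage. Onecut1 and Onecut2 carry a cut domain and a homeodomain and act on hepatoblast migration and on bile duct formation. These factors are known to regulate one another's genes as a network.

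The upstream sequences of *Hnf4a*, *Foxa2* and *Foxa1* are given because they hold letters that factors of this network are known to read. They are the bases before RefSeq starts (GRCm38.p6), without bases that the annotation places in an exon of the gene, in lower case with the motif letters in capitals, 5′ to 3′ on the strand of the gene. *Hnf4a* has 2 listed starts, and the counts do not tell their transcripts apart. The window of the outer start, chr2:163506607-163506807 on the plus strand, holds ATCAATA, the letters of a ONECUT site. The *Foxa2* window given is that of its outermost listed start, chr2:148046970-148047219 on the minus strand. It holds ATCAATA on the other strand, and the windows of the other listed *Foxa2* starts do not hold these letters. The *Foxa1* window, chr12:57546122-57546361 on the minus strand, holds the forkhead letters TGTTTAC on the other strand. It lies before the listed RefSeq start but inside the annotated span of the gene, which begins further upstream.
Hnf4a, outer start: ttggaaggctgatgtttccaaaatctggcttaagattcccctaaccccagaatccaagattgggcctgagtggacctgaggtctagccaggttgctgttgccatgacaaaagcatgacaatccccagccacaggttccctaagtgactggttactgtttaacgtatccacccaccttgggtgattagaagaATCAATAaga
Foxa2: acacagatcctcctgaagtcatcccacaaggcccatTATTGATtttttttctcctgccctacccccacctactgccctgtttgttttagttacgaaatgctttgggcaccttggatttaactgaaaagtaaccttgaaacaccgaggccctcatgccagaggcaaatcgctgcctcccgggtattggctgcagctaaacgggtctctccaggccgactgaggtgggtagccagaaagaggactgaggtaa
Foxa1: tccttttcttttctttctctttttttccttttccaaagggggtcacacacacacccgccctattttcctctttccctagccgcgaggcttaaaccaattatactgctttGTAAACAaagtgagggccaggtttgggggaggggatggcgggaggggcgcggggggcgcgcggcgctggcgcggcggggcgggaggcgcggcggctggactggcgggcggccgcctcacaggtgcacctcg

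On both strands of the 250 bases before all 32851 listed mouse starts, ATCAATA occurred in 1.86% and TGTTTAC in 3.17% of windows. The 7 members other than *Onecut2* had 11 listed starts, of which 2 held ATCAATA and 1 held TGTTTAC. The forkhead variant TGTTTGC, present in 4.3% of all windows, occurred before 1 start of *Prox1*. The HNF4 core AAAGTCC (3.58% of all windows) and the C/EBP letters TTGCNNAA (9.56%) occurred in 0 of the 11. These matches are letters in a window and were not tied to any count.

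Each cell was set to a lineage by its reads of *Afp*, the fetal plasma protein made by hepatoblasts, *Klf1*, an erythroid transcription factor, and *Pdgfra*, a growth factor receptor of mesenchyme. A cell with more than 10 reads of exactly 1 of them was called positive for it, and a gene was called detected in a cell above the same 10 reads. This gave 61 Afp-positive, 160 Klf1-positive and 150 Pdgfra-positive cells. A further 10 cells passed several markers and 272 passed none. *Afp* left a gap at the limit, since the highest cell at or below it had 8 reads and the lowest above it 22. Afp-positive cells made up 9.34% (95% exact interval 7.22 to 11.8%) of all cells, so most cells labelled hepatoblast had no *Afp* call. They were 53 E10.5 Lgr5-GFP+, 6 E10.5 bulk, 2 E13.5 Lgr5-GFP+ and 0 E13.5 bulk cells. All 61 had more than 10 reads of at least 2 of 8 hepatoblast markers, *Afp* being 1 of the 8. Of the Klf1-positive cells 98.1% detected at least 2 of 8 erythroid markers, *Klf1* being 1 of them. Of the Pdgfra-positive cells 96.7% detected at least 2 of 8 mesenchymal markers, *Pdgfra* being 1 of them. Intervals here and later cover counting error only, and amplified reads without molecular identifiers are not independent molecules.

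The 5 library pools fell into 2 sets that touch every share below. Reads per cell were alike, with pool medians from 1144098 to 1258819. Genes with a read were not, with medians of 4515 and 4488 in pools 1 and 2 against 6606, 6550 and 6280 in pools 3, 4 and 5. The difference was present in every lineage, from 4594 to 6369 genes in Klf1-positive and from 4423 to 6689 in Pdgfra-positive cells. Pool 2 also held 33 of the 61 Afp-positive cells. The labels give no sort date, so pool, sort date and embryo cannot be told apart, and results are given within pools where they differ.

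Over all cells, *Onecut2* was detected in 87, *Prox1* in 51, *Foxa3* in 38, *Foxa2* in 36, *Hnf4a* and *Cebpa* in 35 each, *Foxa1* in 20 and *Onecut1* in 5. At least 1 of the 8 was detected in 130 cells (19.9%, 16.9 to 23.2%). The Afp-positive cells held 96.9% of all *Hnf4a* reads, 95.5% of *Foxa3* reads, 94.6% of *Onecut1* reads, 85.8% of *Foxa2* reads and 84.7% of *Onecut2* reads. They held smaller parts of the reads of *Prox1* (68.3%), *Foxa1* (67.2%) and *Cebpa* (58%). Most of the remainder lay in cells without a lineage marker, which had 40.3% of *Cebpa*, 32.7% of *Foxa1* and 24.2% of *Prox1* reads. Few unmarked cells detected these genes, 9 for *Cebpa*, 7 for *Foxa1* and 9 for *Prox1*. A single one, E10.5 Lgr5-GFP+ cell 60, held 1546 of the 4426 unmarked *Cebpa* reads. It also held 595 of the 1545 unmarked *Foxa1* and 2395 of the 5689 unmarked *Prox1* reads.

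Levels were taken as reads summed over the cells of a lineage per 1000000 of their reads on all genes (RPM). All 7 members detected in at least 10 cells were at least 4-fold higher in Afp-positive cells than in both the Klf1-positive and the Pdgfra-positive cells. *Onecut1* missed the filter of detection in at least 10 cells. *Hnf4a*, *Foxa1*, *Foxa2* and *Foxa3* passed it only through the Afp-positive cells. These made up 94.3%, 65%, 77.8% and 89.5% of the cells detecting each of them. The filter thus favoured a call for these genes, and the count of 7 is not independent of it. Of all 13331 genes past that filter, 563 (4.22%) met the same 4-fold limit, with a median ratio of 0.61 over all genes and of 1290 over the 7 members. Taken within each of the 4 pools with at least 5 Afp-positive cells, the 7 members again met it in every pool, against 1.47% of all genes past the filter. The groups were not replicated, so these ratios have no test. Their size depended on the processing. With every cell thinned to 100000 reads, and a lineage at 0 reads set to 3, the 7 ratios ran from 50.1 to 735 with a median of 206.6. When cells with several markers were counted in each of their lineages, they ran from 22.8 to 1258 with a median of 134.8, and *Hnf4a* fell from 4122 to 170.7, *Foxa2* from 5694 to 158.7 and *Foxa3* from 2612 to 67.8. Without pool 2 *Foxa2* was at 9005 and *Foxa3* at 4526, and without pool 4 *Cebpa* was at 284 instead of 140. All 7 stayed above the 4-fold limit in these settings. *Afp*, which set the lineage, is itself a gene these factors are known to act on.

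**Figure D1:**
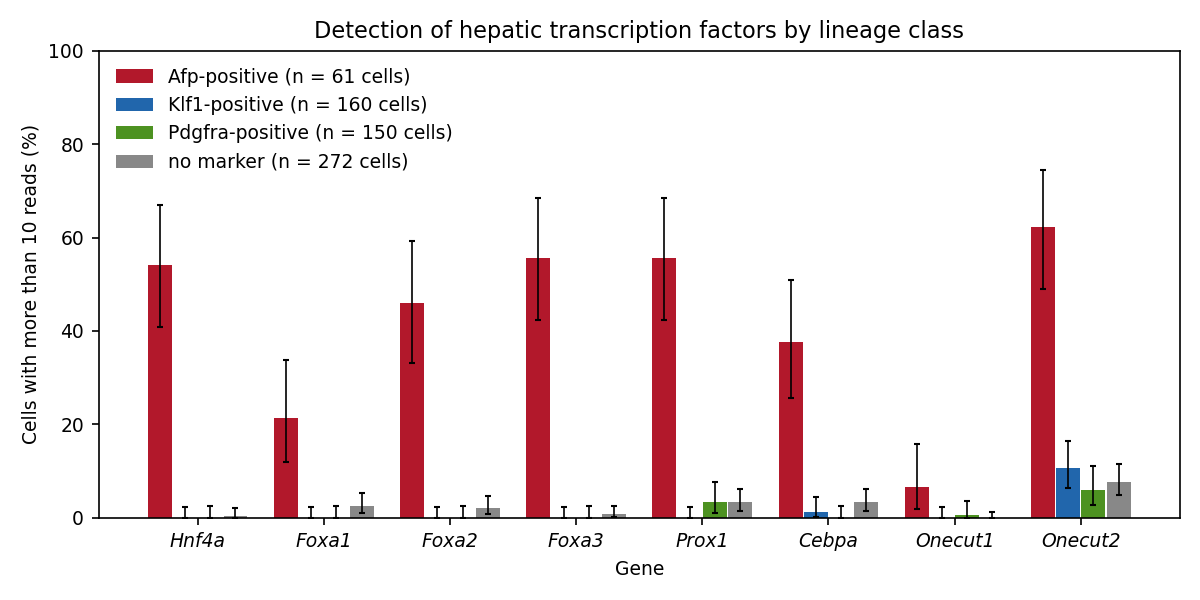
Share of cells with more than 10 reads of each of the 8 factors (y axis, percent; bars, error bars exact 95% intervals) in Afp-positive, Klf1-positive and Pdgfra-positive cells and in cells with no marker. Bars of Afp-positive cells stand between 6.56% for *Onecut1* and 62.3% for *Onecut2*, and the other classes stay at or below 3.33% except for *Onecut2*, at 6 to 10.6%.

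The nuclear receptor gene *Hnf4a* (ENSMUSG00000017950, chromosome 2, 163506808 to 163572910, plus strand) had the largest part of its reads in Afp-positive cells among the 8, while *Foxa2* had the largest ratio to the other lineages. It was detected in 33 of 61 Afp-positive cells (54.1%, 40.8 to 66.9%). Over the 61 cells its level ran from 0 through a median of 72.9 to 994 RPM, and over the 33 detecting cells from 59.1 through 261 to 994 RPM. It was detected in 0 of 160 Klf1-positive cells, which allows up to 1.88%, and in 0 of 150 Pdgfra-positive cells, which allows up to 2%. The summed level was 156.7 RPM (153.9 to 159.5) in Afp-positive cells, 0.0279 (0.00905 to 0.065) in Klf1-positive and 0.038 (0.0153 to 0.0783) in Pdgfra-positive cells. No Klf1-positive cell had more than 1 *Hnf4a* read and no Pdgfra-positive cell more than 2. The lineages still overlapped at the low end, since 23 Afp-positive cells had 0 reads.

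The forkhead genes differed among themselves. *Foxa3* (ENSMUSG00000040891, chromosome 7, 19013284 to 19023538, minus strand) was detected in 34 Afp-positive cells (55.7%, 42.4 to 68.5%) and *Foxa2* (ENSMUSG00000037025, chromosome 2, 148042877 to 148046969, minus strand) in 28 (45.9%, 33.1 to 59.2%). *Foxa1* (ENSMUSG00000035451, chromosome 12, 57540628 to 57546916, minus strand) was detected in 13 (21.3%, 11.9 to 33.7%), an interval that lies below that of *Foxa3* and overlaps slightly with that of *Foxa2*. In detecting Afp-positive cells *Foxa3* ran from 8.69 through 197.9 to 1041 RPM, *Foxa2* from 14.2 through 130 to 1297 RPM and *Foxa1* from 12.1 through 156.2 to 778 RPM. The 3 genes were each detected in 0 Klf1-positive and 0 Pdgfra-positive cells. *Foxa1* had 0 reads in the 160 Klf1-positive cells and 6 reads in the Pdgfra-positive cells, 1 in each of 6 cells. Of the Afp-positive cells 6 detected all 3 genes, 20 exactly 2, 17 exactly 1 and 18 none. The pair *Foxa2* and *Foxa3* without *Foxa1* was the most common combination, with 16 cells.

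The homeobox gene *Prox1* (ENSMUSG00000010175, chromosome 1, 190118035 to 190170714, minus strand) was detected in 34 Afp-positive cells (55.7%, 42.4 to 68.5%), from 19.1 through 312 to 1287 RPM. Its summed level was 212.8 RPM (209.5 to 216.1) there, against 0.0724 RPM in Klf1-positive and 4.77 RPM (4.46 to 5.09) in Pdgfra-positive cells, where 5 of 150 cells (3.33%, 1.09 to 7.61%) detected it. *Cebpa* (ENSMUSG00000034957, chromosome 7, 35119293 to 35121928, plus strand) was detected in 23 Afp-positive cells (37.7%, 25.6 to 51%), from 8.63 through 142.1 to 899 RPM. It summed to 84.2 RPM (82.2 to 86.3) there, to 0.602 RPM in Klf1-positive and to 0.0489 RPM in Pdgfra-positive cells. The ratio to the higher of the other lineages was 44.6 for *Prox1*, the smallest of the 7 genes, and 140 for *Cebpa*.

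The 2 ONECUT genes stood at opposite ends, but *Onecut1* shares 52.8% of its exon bases with another gene, so its level is uncertain. *Onecut1* (ENSMUSG00000043013, chromosome 9, 74861921 to 74891781, plus strand) was detected in 4 Afp-positive cells (6.56%, 1.82 to 15.9%), from 23.9 through 34.8 to 56.9 RPM, and its sum was 3.5 RPM (3.09 to 3.94). *Onecut2* (ENSMUSG00000045991, chromosome 18) was detected in 38 (62.3%, 49 to 74.4%), from 13.8 through 247 to 3833 RPM, and its sum was 263 RPM (259 to 266). *Onecut2* was the member detected in the largest share of cells of the other classes. It was detected in 10.6% (6.31 to 16.5%) of Klf1-positive, 6% (2.78 to 11.1%) of Pdgfra-positive and 7.72% (4.84 to 11.6%) of unmarked cells, at medians of 20.3, 26.1 and 17.7 RPM. At least 1 read was present in 35% of Klf1-positive cells. Its sum of 3.77 RPM there was 69.7-fold below that of Afp-positive cells.

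Per kilobase of merged exon and per 1000000 reads, the order of levels in Afp-positive cells was *Foxa3* (69.6), *Foxa2* (52.2), *Hnf4a* (32.4), *Cebpa* (32), *Prox1* (25.4), *Onecut2* (16.2), *Foxa1* (12.6) and *Onecut1* (0.85). The counting intervals of *Hnf4a* (31.9 to 33) and *Cebpa* (31.2 to 32.8) overlapped. The order of neighbours also changed between pools. *Foxa3* ran from 62.3 to 98.8 and *Foxa2* from 42.1 to 62.4 over pools 2 to 5, and they changed places in pool 3. *Prox1* ranked from 3 to 6, at 16.4 in pool 2 and 50.9 in pool 3. *Foxa1* ranked 7 and *Onecut1* 8 in each of these pools. The exon length of *Onecut2*, 16234 bases, was the longest of the 8, and it had the highest RPM but the sixth level per kilobase.

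The pools separated the share of detecting cells far more than the summed level. In pools 1 and 2, 12 of 36 Afp-positive cells detected *Hnf4a* (33.3%), and in pools 3 to 5, 21 of 25 did (84%), but the sums were 144.3 and 176.1 RPM. *Foxa2* was detected in 22.2% and 80% with sums of 117.8 to 124.2 and 123.7 to 131.9 RPM (95% intervals), *Foxa3* in 36.1% and 84% with 124.7 to 131.3 and 158.9 to 168.1 RPM, *Cebpa* in 19.4% and 64% with 75.5 and 97.9 RPM, and *Onecut2* in 41.7% and 92% with 261 and 266 RPM. In pools 1 and 2 fewer cells thus held more reads each. The median of detecting cells was 373 against 241 RPM for *Hnf4a* and 430 against 107.9 RPM for *Foxa2*. *Prox1* differed in both, with 33.3% and 88% of cells and 142.6 and 322 RPM. *Foxa1* went the other way in level, with 52.7 RPM at 13.9% of cells and 25.3 RPM at 32%. *Afp* itself summed to 1077 RPM in pool 2 and to between 3944 and 4143 RPM in pools 3 to 5. The part of library preparation in these differences was not tested.

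**Figure D2:**
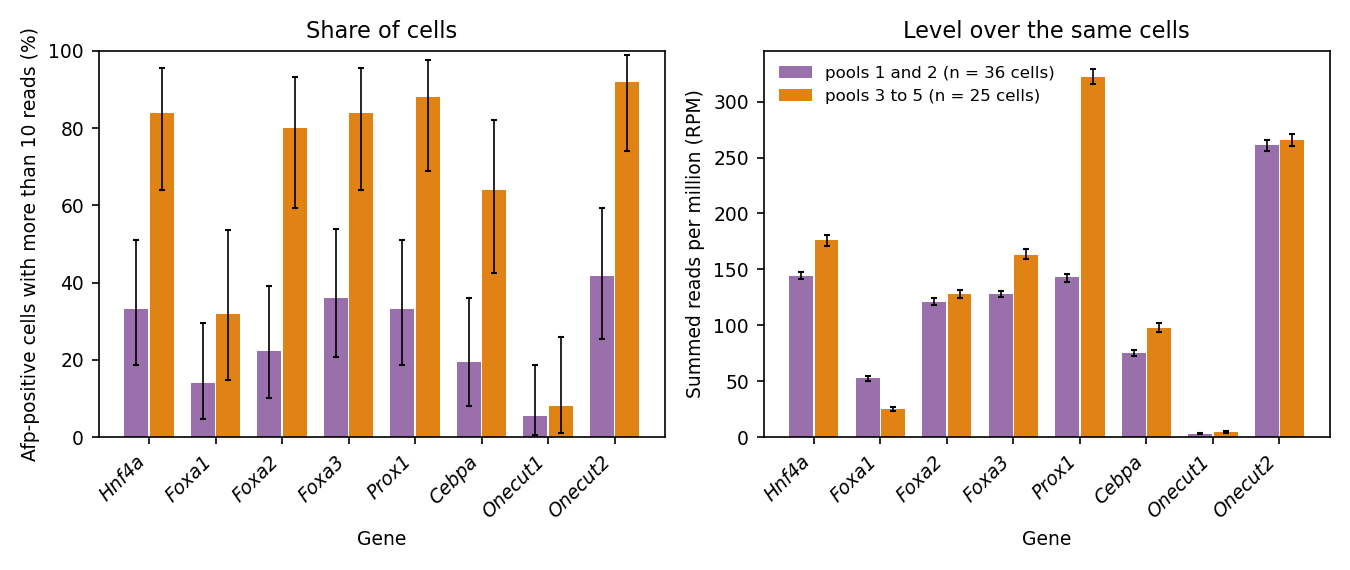
Left, share of Afp-positive cells with more than 10 reads of each factor (percent, exact 95% intervals), and right, reads of each factor summed over the same cells per 1000000 reads (RPM, exact Poisson 95% intervals), for pools 1 and 2 (36 cells) and pools 3 to 5 (25 cells). The shares of *Hnf4a* are 33.3% and 84% while its levels are 144.3 and 176.1 RPM.

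Co-detection was counted as the number of the 8 genes above 10 reads in the same cell. Afp-positive cells detected a median of 3, from 0 to 7. Of the 61 cells, 7 detected none, 10 detected 1, 6 detected 2, 9 detected 3, 7 detected 4, 6 detected 5, 12 detected 6 and 4 detected 7. No cell detected all 8. At least 4 were detected in 29 cells (47.5%, 34.6 to 60.7%). The share was 19.4% (8.19 to 36%) in pools 1 and 2 and 88% (68.8 to 97.5%) in pools 3 to 5, with medians of 2 and 6 genes, and all 16 cells with 6 or 7 genes were from pools 3 to 5. The most common set, in 8 cells, was *Hnf4a*, *Foxa2*, *Foxa3*, *Prox1*, *Cebpa* and *Onecut2*, and 4 more cells had this set together with *Foxa1*.

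In the other lineages detection of a member was mostly of 1 gene alone. Of 160 Klf1-positive cells 18 (11.2%, 6.81 to 17.2%) detected any member, 17 of them 1 and 1 of them 2, and 17 of the 18 involved *Onecut2*. Of 150 Pdgfra-positive cells 14 (9.33%, 5.2 to 15.2%) detected any, 13 of them 1 and 1 of them 2. At least 4 members were detected in 0 cells of either lineage, which allows up to 1.88% and 2%. Of the 272 unmarked cells 41 (15.1%, 11 to 19.9%) detected any member and 3 detected 4. The whole data set held 34 cells with at least 4 members. Of these 29 were Afp-positive, 2 had *Afp* together with *Pdgfra* and 3 had no marker.

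**Figure D3:**
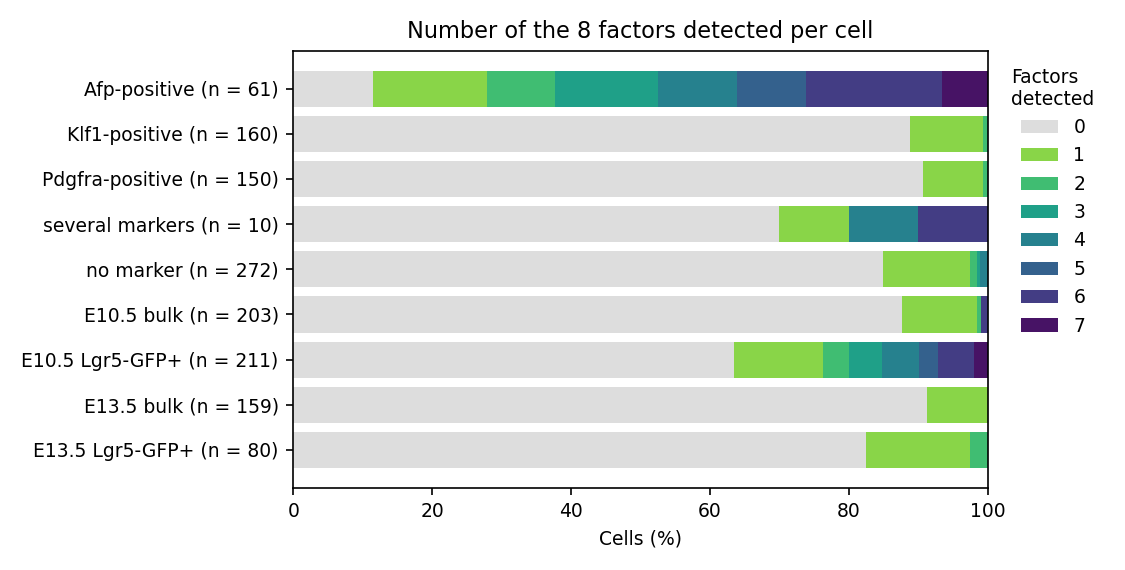
Share of cells (x axis, percent) by the number of the 8 factors detected with more than 10 reads, for the lineage classes and for the 4 groups of stage and sort (rows, with the number of cells). Afp-positive cells spread from 0 to 7 factors, while 88.8% of Klf1-positive and 90.7% of Pdgfra-positive cells have 0.

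**Figure D4:**
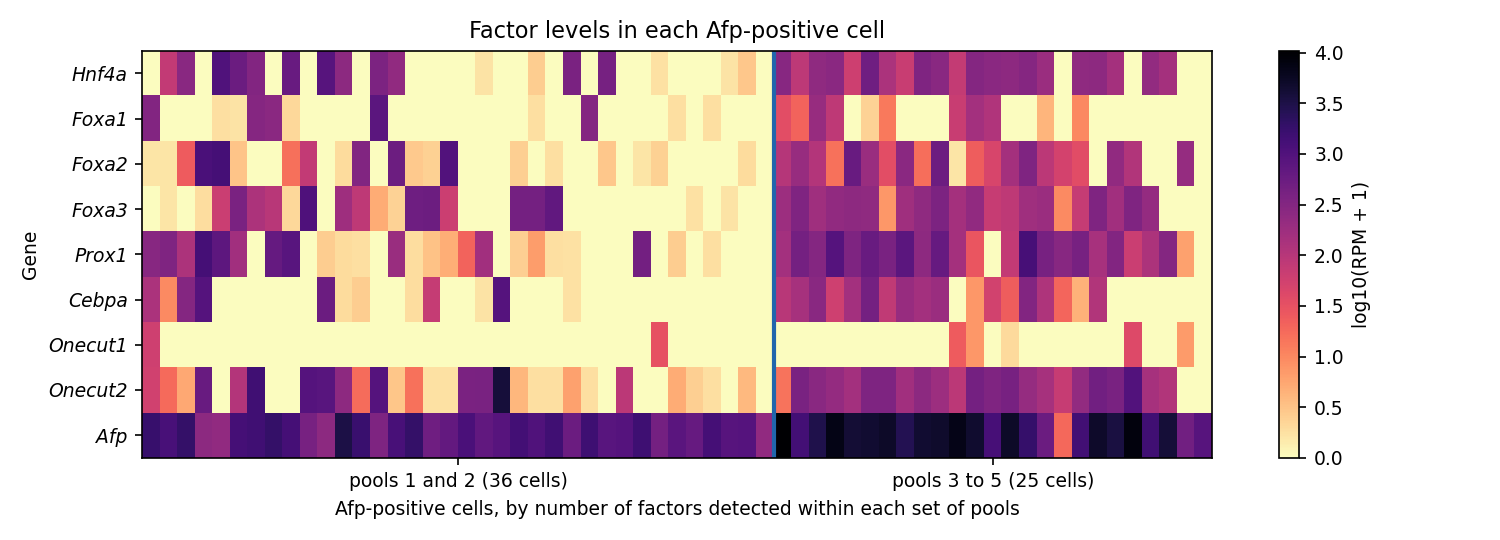
Level of each factor and of *Afp* (rows) in each of the 61 Afp-positive cells (columns), as log10 of RPM plus 1 (colour), with the 36 cells of pools 1 and 2 left of the line and the 25 cells of pools 3 to 5 right of it, each sorted by the number of factors detected. Factor rows left of the line are mostly low or empty with scattered high cells, and those right of it are filled in most cells, except for *Foxa1* and *Onecut1*. The *Afp* row is filled on both sides.

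Pairs were read by comparing the share of Afp-positive cells with a partner gene between cells with and without a given gene. Leaving out *Onecut1*, the partner was more often detected in cells with the given gene for 21 of 21 pairs. The largest contrast was between *Prox1* and *Hnf4a*. *Hnf4a* was detected in 26 of 34 cells with *Prox1* (76.5%, 58.8 to 89.3%) and in 7 of 27 without it (25.9%, 11.1 to 46.3%). *Foxa2* was detected in 67.6% of cells with and 18.5% of cells without *Prox1*, and *Onecut2* in 91.3% of cells with and 44.7% of cells without *Cebpa*. *Foxa1* with *Foxa2* was the weakest pair, with 53.8% against 43.8%. All pairs rest on the same 61 cells, so the 21 directions are not independent.

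**Figure D5:**
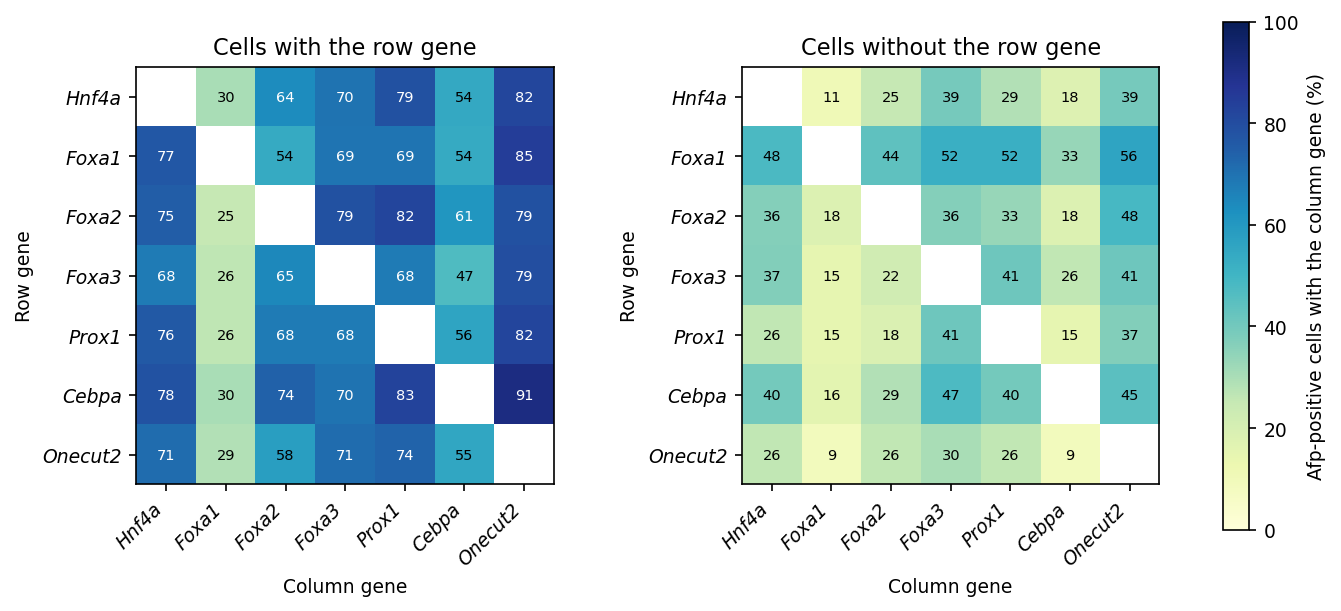
Percent of Afp-positive cells that detect the column gene among cells that detect the row gene (left) and among cells that do not (right), for 7 factors with *Onecut1* left out (4 detecting cells). Values on the left exceed those on the right for every pair, for example 76.5% against 25.9% for *Hnf4a* given *Prox1*.

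Within pools this pattern was weaker. In the 33 Afp-positive cells of pool 2 the partner was more often detected for 14 pairs and less often for 7. *Foxa2* was not detected above 10 reads in any of the 4 cells with *Foxa1* there, and *Prox1* was detected in 16.7% of cells with and 42.9% of cells without *Foxa3*. *Hnf4a* and *Prox1* kept their direction, with *Prox1* in 6 of 12 cells with *Hnf4a* and in 5 of 21 without. In the 25 cells of pools 3 to 5 the direction was positive for 20 of 21 pairs, but most genes were detected in nearly every cell, so few cells without the given gene remained. *Prox1* was detected there in 20 of 21 cells with *Hnf4a* and 2 of 4 without. The pattern over all cells thus moved with the pools.

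The number of members detected had a Spearman rho of -0.0643 with the reads of an Afp-positive cell over 61 cells, of 0.784 with its number of genes and of 0.527 with its *Afp* reads. The relation to reads was 0.226 in the 36 cells of pools 1 and 2 and 0.144 in the 25 cells of pools 3 to 5, about as weak in the former as that to *Afp* reads. The relation to genes was 0.402 in pools 1 and 2 and 0.492 in pools 3 to 5, and that to *Afp* reads 0.241 and 0.417. These are descriptions over cells that share libraries. Cells with over 1000 *Afp* reads detected at least 4 members in 23 of 41 (56.1%, 39.7 to 71.5%) and cells with over 100 and up to 1000 reads in 5 of 19 (26.3%, 9.15 to 51.2%). Within pool 2 these were 5 of 19 and 2 of 14 cells, and within pools 3 to 5 they were 18 of 20 and 3 of 4. The single cell with 22 *Afp* reads detected 5 members, among them *Prox1* with 365 reads.

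The hepatocyte genes that such factors are known to act on, a list of 22, were detected in greater number where more members were. Afp-positive cells with 0 or 1 members detected a median of 9 of them, those with 2 or 3 a median of 10, those with 4 or 5 a median of 12 and those with 6 or 7 a median of 13. The relation had a rho of 0.738 over all 61 cells, 0.442 in pools 1 and 2 and 0.743 in pools 3 to 5. The median number of all genes with a read also rose over these bins, from 4710 through 5000 and 5460 to 7188. Its rho with the number of members was 0.784, and all cells with 6 or 7 members were from pools 3 to 5. Cells without a member could still make liver transcripts. E10.5 Lgr5-GFP+ cell 92 had 12055 reads of albumin (*Alb*) and at most 3 reads of any member, and cell 87 had 3537 reads of *Alb* and 7092 of transthyretin (*Ttr*) with at most 1 read of any. Both were from pool 2. Of the 22 genes 14 passed the filter of detection in 10 cells. Of these, 13 were at least 4-fold higher in Afp-positive cells, with a median ratio of 1566. Over all genes past the filter 4.22% met this limit, with a median ratio of 0.61. The exception among the 14 was *Apoh*, at 0.265 RPM against 2.13 RPM in Pdgfra-positive cells. Some of the 13 passed the filter only through the Afp-positive cells, such as *Alb* with 50 of its 59 detecting cells there. The filter thus favoured a call for them, and the count of 13 is not independent of it. *Trf*, the transferrin gene, and *Tat* are listed at 0 in all cells, and *Cps1*, *Pck1*, *Cyp7a1* and *G6pc*, enzymes of the mature hepatocyte, were detected in 4, 2, 2 and 0 cells.

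Among 20 other hepatic factors 15 passed the filter. Of these, 7 were at least 4-fold higher in Afp-positive cells, against 4.22% of all genes past the filter. Within each pool 5 of them were, against 1.47% of all genes past the filter. Some passed the filter only through the Afp-positive cells, such as *Hnf4g* with 8 of its 11 detecting cells there. *Onecut3*, the third ONECUT gene, was at 63.9 RPM in Afp-positive cells against 0.0271 in Pdgfra-positive cells, well above the 3.5 RPM counted for *Onecut1*. *Nr5a2*, a nuclear receptor, was at 158.4 RPM, *Hhex*, a homeobox gene of the liver bud and of endothelium, at 254 RPM with 10.8 RPM in Klf1-positive cells, and *Hnf4g*, a paralogue of *Hnf4a*, at 26.5 RPM. Liver bud factors shared with mesenchyme went the other way in summed level, with *Tbx3* at 41.3 against 72.4 RPM, *Gata6* at 93.7 against 146.3 to 149.8 RPM (95% interval) and *Gata4* at 0.225 against 57 RPM in Afp-positive and Pdgfra-positive cells. The share of detecting cells followed this only for *Gata4*, at 0 against 20%. It was 42.6% against 34% for *Tbx3* and 54.1% against 50.7% for *Gata6*. In pool 5 the level of *Tbx3* was also higher in Afp-positive cells, with a ratio of 2.41.

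Over all cells, the genes with the pattern most like that of a member, by Pearson r of log2(RPM + 1) and taking 3 for each member, were the following. *Hnf4a* was closest to the haem carrier gene *Hpx* (0.76), the fibrinogen gene *Fgg* (0.74) and *Spp2* (0.74). *Foxa3* was closest to *Habp2* (0.78), *Vtn* (0.77) and *Serpina6* (0.76), and *Foxa2* to *Cpn1* (0.69), *Itih2* (0.67) and *Grb7* (0.67). *Prox1* was closest to *Afp*, *Lect2* and *Fga* (0.66 each), and *Onecut2* to *Itih2* (0.62), *Fgb* (0.61) and *Habp2* (0.6). Lower values were found for *Cebpa* with *Igfbp1* (0.6), *Fga* (0.55) and *Apoc1* (0.54), for *Foxa1* with *Spp2* (0.52), *Vtn* and *Cpn1* (0.47 each) and for *Onecut1* with *Adam32* (0.35), *Tm4sf4* (0.34) and *Dnajc22* (0.32). Cells share pools and depth, and these values mainly record which cells detect both genes. *Fgg*, for example, was detected in 33 of the 35 cells with *Hnf4a*.

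Outside the Afp-positive cells the members were found in different kinds of cell. *Foxa1* was detected in 7 and *Foxa2* in 6 cells without any of the 3 lineage markers. All of these detected *Epcam*, an epithelial adhesion gene, and all were E10.5 Lgr5-GFP+ cells. Together they were 8 of the 31 *Epcam*-detecting cells outside the Afp-positive and mixed classes (25.8%, 11.9 to 44.6%), and none of the 8 had more than 5 *Afp* reads. Of the 551 cells with neither *Epcam* nor *Afp* detected, 0 detected *Foxa1* or *Foxa2*. Of the 8 cells, 1 from pool 3 had *Foxa1* at 91.7 RPM, *Foxa2* at 133.9 RPM, *Epcam* at 1739 RPM and the cadherin gene *Cdh1* at 330.0 RPM. Another, from pool 5, had *Foxa1* at 160.3 RPM, *Foxa2* at 197.4 RPM and *Cebpa* at 57.5 RPM together with *Nkx2-1*, a factor of lung and thyroid endoderm, at 232.0 RPM. A further cell of pool 5 had *Foxa1* at 45.1, *Foxa2* at 212.3 and *Nkx2-1* at 272.4 RPM. *Hnf4a* was detected in only 1 cell without a lineage marker, also *Epcam*-detecting and from pool 5, at 88.7 RPM beside *Nr5a2* at 46.1 RPM, *Lgr5* at 499 RPM and *Afp* at 2.33 RPM. These cells were chosen for mention after their values were seen.

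E10.5 Lgr5-GFP+ cell 60 had 2395 *Prox1*, 1546 *Cebpa*, 656 *Foxa2* and 595 *Foxa1* reads with 5306 *Ttr* reads, but 4 *Afp* and 8 *Alb* reads, and so fell into the unmarked class. Its *Prox1* and *Cebpa* reads were the highest of all cells. It had 10 reads of *Hnf4a*, just at the limit of detection.

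*Cebpa* was detected in 11 cells outside the Afp-positive and mixed classes, of which 4 detected at least 2 of 6 leukocyte markers and 3 at least 2 of 8 erythroid markers. At least 2 hepatoblast markers were detected in 3, at least 2 endothelial markers in 3 and *Epcam* in 3, and the lists can share cells. E13.5 Lgr5-GFP+ cell 67 had 539 *Cebpa* reads with 1882 of *Csf1r*, 1230 of *Spi1* and 1299 of *Cd68*, genes of macrophages and their precursors. Cell 75 had 381 *Cebpa* reads with 1611 of *Csf1r* and 1887 of *Spi1*. Cell 10 of the same group had the most *Cebpa* reads at E13.5, 1206, but 0 of *Csf1r* and 1 of *Spi1*. It had 1530 reads of the endothelial gene *Kdr* and also detected *Ptprc*. Over the 23 cells with at least 2 leukocyte markers *Cebpa* was detected in 17.4% and summed to 46.7 RPM, while *Hnf4a*, *Foxa1*, *Foxa2*, *Foxa3* and *Prox1* were detected in 0. Over the 28 cells outside the Afp-positive and mixed classes that detected *Ptprc* or *Csf1r*, *Cebpa* was detected in 21.4%, *Foxa1* and *Foxa2* in 2 cells each, *Foxa3* in 1 and *Hnf4a* and *Prox1* in 0. The same 2 cells detected *Foxa1* and *Foxa2*, and both were among the *Epcam*-detecting cells above. They had 1027 and 896 *Epcam* reads, 29 and 74 *Csf1r* reads and 0 *Ptprc* reads. The sort had excluded cells with CD45, and *Ptprc*, which encodes it, was at 306.1 RPM in cell 67 and 137.7 RPM in cell 75.

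*Prox1* was detected in 14 cells outside these classes. Among cells there with at least 2 mesenchymal markers it was detected in 8 (2.99%), and with at least 2 endothelial markers in 2 (4.55%). With at least 2 mesothelial markers it was detected in 4 (6.06%), and with at least 2 hepatoblast markers in 3 (6.67%). 1 E10.5 bulk cell of pool 3 had *Prox1* at 107.7 RPM with the endothelial genes *Pecam1* at 874.5 and *Lyve1* at 322.2 RPM. The 4 E13.5 cells with *Prox1* were all Lgr5-GFP+ cells of pool 2, with 59, 365, 959 and 1549 reads. They had at most 3 *Afp* and 4 *Alb* reads and 0 detected members besides *Prox1*. *Onecut2* was detected in 47 cells outside these classes, at a median of 20.3 RPM. Of these, 18 had at least 2 erythroid markers (9.57% of cells with such markers) and 18 at least 2 mesenchymal markers (6.72%). A further list, of hepatoblast markers, had 9 such cells (20%), and the lists can share cells.

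By stage, 34 of 414 E10.5 cells (8.21%, 5.75 to 11.3%) and 0 of 239 E13.5 cells, which allows up to 1.26%, detected at least 4 members. The E13.5 cells held 2 Afp-positive cells, so few E13.5 cells could be placed in this lineage and the factors could not be followed in them. E13.5 Lgr5-GFP+ cell 4, with 224 *Afp* reads, had 0 reads of all 8 members and of *Alb* and *Ttr*, and had 5287 reads of the collagen gene *Col3a1*. E13.5 Lgr5-GFP+ cell 43, with 1093 *Afp* and 827 *Alb* reads, also had 0 reads of all 8, and had 2255 reads of *Csf1r* and 2530 of *Spi1*, genes of macrophages. Both thus carried reads of another lineage beside *Afp*. At E13.5 *Hnf4a*, *Foxa1*, *Foxa2* and *Foxa3* were detected in 0 of 239 cells, *Prox1* in 4, *Cebpa* in 7 and *Onecut2* in 19.

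By sort, at E10.5, 32 Lgr5-GFP+ cells (15.2%, 10.6 to 20.7%) and 2 bulk cells (0.985%, 0.12 to 3.51%) detected at least 4 members. Within pools 2 to 5 the shares were between 12.2% and 23.7% in Lgr5-GFP+ cells and between 0 and 2.7% in bulk cells, and in pool 1 both were 0. The share of Afp-positive cells in Lgr5-GFP+ and bulk cells was 2.22% and 2.38% in pool 1, 66% and 4.88% in pool 2, 20% and 4.88% in pool 3, 12.2% and 0% in pool 4 and 21.1% and 2.7% in pool 5, so it differed between sorts in every pool but pool 1. *Hnf4a* was detected in 33 Lgr5-GFP+ cells and 2 bulk cells at E10.5, *Foxa3* in 36 and 2, *Foxa2* in 33 and 3, *Prox1* in 38 and 9, *Cebpa* in 25 and 3 and *Onecut2* in 52 and 16. Among the 6 Afp-positive bulk cells 2 detected 6 members each and 4 detected 1 each. At least 4 members were detected in 2 of 6 Afp-positive bulk cells and 27 of 53 Afp-positive Lgr5-GFP+ cells. Of the 53 cells 31 were from pool 2, no pool held more than 2 of the 6, and the sorts were not compared within the Afp-positive cells.

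The *Lgr5* transcript itself was detected in 23 Afp-positive cells, of which 14 (60.9%, 38.5 to 80.3%) detected at least 4 members, against 15 of 38 (39.5%, 24 to 56.6%) of the other Afp-positive cells, which were 8 of 15 with 1 to 10 *Lgr5* reads and 7 of 23 with 0. The direction was the opposite within pools 1 and 2, where it was 1 of 10 with and 6 of 26 without *Lgr5* detection, and in pools 3 to 5 it was 13 of 13 and 9 of 12.

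Low read numbers followed the plate indices. Each library carried a pair of index sequences shared with others of its pool. Of the cells with 1 to 10 *Afp* reads 98.8% shared an index with a cell of the same pool above 10 reads, against 45.8% of the 419 cells with 0 reads. The same held for *Foxa2* (27 of 27 against 40.5%), *Prox1* (65 of 70 against 56.6%), *Foxa3* (29 of 32 against 44.8%) and *Hnf4a* (34 of 45 against 39.4%). What placed these reads was not tested. No Klf1-positive or Pdgfra-positive cell had more than 3 reads of *Hnf4a*, *Foxa1*, *Foxa2* or *Foxa3*, so the ratios of over 1000 for these 4 genes rest on reads in this low range and moved with how such reads were handled.

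The reads are not stranded, so a member and a gene antisense to it cannot be told apart where exons overlap. *Prox1os* shares 1.59% of the exon bases of *Prox1* and was detected in 20 cells, 16 of which also detected *Prox1*. *Gm45091* shares 51 bases with *Cebpa* and was detected in 1 cell, which did not detect *Cebpa*. *Gm20649* runs on the same strand as *Onecut1* and shares 2171 of its exon bases (52.8%), and reads in that stretch are ambiguous between both genes. It was detected in 0 cells and the level of *Onecut1* is therefore uncertain. *Hnf4aos* shares 0 exon bases with *Hnf4a* and had 6 reads in all.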

How the data were processed

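Single cells were sequenced as Smart-seq2 libraries without molecular identifiers. Per the labels and the study's methods, the authors aligned single-end reads with STAR 2.6.0c to GRCm38.p6, counted uniquely aligned reads per gene without strand (Subread 1.6.2) and kept cells past quality limits. The deposited table holds raw counts, 463347 to 2279700 reads per cell. The deposited batch-corrected score table was not used. Each group is 1 sample, so no test across samples was made. A gene counted as detected above 10 reads. Levels were summed reads per 1000000 with exact Poisson 95% intervals, and shares have exact Clopper-Pearson intervals. Ratios used genes detected in at least 10 cells of any class, which could all be Afp-positive, and a 4-fold limit. Amplified reads are not independent, so intervals cover counting error only. A share of 0 is given with the limit that 3 counts allow. The ratio script was tested on simulated data. Members and gene lists were chosen with earlier results of these data known. Named genes were the members, the fixed lists and the 3 genes most correlated with each member. Some genes of these lists are not reported here. Cells named singly were chosen after their values were seen. Alternatives were 1 read, over 50 reads, stricter markers, thinning to 100000 reads, other scalings and leaving out pools. Python 3.11.15, numpy 2.4.6, pandas 2.3.3 and SciPy 1.17.1 were used.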

Additional observations from a re-analysis of the deposited data

How the results depend on the processing

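No paired analysis was possible because no test was made: each group is 1 sample and replicate numbers only name cells. The 7 members stayed at least 4-fold higher in Afp-positive cells in every setting where they passed the filter, which 5 did with pools 1 and 2 only. The size of the ratio did not hold, from a median of 1290 to 206.6 with cells thinned and to 134.8 with cells of several markers counted in each lineage. With detection at 1 read, the median number of members per Afp-positive cell was 5, the share with at least 4 members 70.5%, the share with any member 42.5% in Klf1-positive and 48.7% in Pdgfra-positive cells, and the share of E10.5 cells with at least 4 members 12.3%. Above 50 reads the shares with any member were 3.12% and 3.33%. In pools 1 and 2 only there were 36 Afp-positive, 53 Klf1-positive and 53 Pdgfra-positive cells, 19.4% of Afp-positive cells had at least 4 members, 1.89% of Pdgfra-positive cells had any, and 5.14% of E10.5 cells had at least 4. Leaving out 1 pool at a time gave 28 to 58 Afp-positive cells, medians of 3 to 6 members, 38.5 to 78.6% of Afp-positive cells with at least 4 members (78.6% without pool 2), 9.92 to 12.5% of Klf1-positive and 7.14 to 11% of Pdgfra-positive cells with any, and 7.08 to 10.4% of E10.5 cells with at least 4. The share of Afp-positive cells detecting a member moved beyond its interval for 6 of 8 members without pool 2 and for 5 of 8 at 1 read. None of the ratios of the 8 members reversed, and shares, levels and medians have no direction to reverse. Pairs and *Lgr5* detection were not among these settings, and some of their directions differed within pools, as given above. The cause of these shifts was not tested.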
